A study of Mus musculus with 12 samples.

Results

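The comparison described here is the response of female mouse embryonic stem cells (mESC) to 2 days of embryoid body (EB) differentiation, set against the same response after loss of Rif1. For each gene the change from mESC to EB in knockout (KO) lines was taken less the change in wild-type (WT) lines, on the log2 scale. This value is called the difference of changes below. It rests on 8 of the 12 libraries in the series, the WT and KO libraries of mESC and EB made after 4-hydroxytamoxifen (OHT). A gene is blunted, exaggerated or reversed according to how the KO change stands to the WT change.

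RNA came from 4 female lines of a hybrid background, C57BL/6J-129/SvJ crossed with Mus musculus castaneus, all with a tamoxifen-activated Cre recombinase at 1 Rosa26 allele (Rs26+/CreERT). The WT lines 5.3 and 5.16 were Rif1+/+, and the KO lines 15.10 and 16.9 were Rif1F/F, so that OHT removes the floxed part of Rif1 in them. All 8 libraries compared came from cells given OHT for 2 days, WT lines included. The mESC were grown with serum, leukemia inhibitory factor (LIF) and inhibitors of MEK and GSK3, and the EB had differentiated for 2 days. Each of the 4 groups holds 2 libraries, 1 per line, and the labels name no repeat cultures of a line. With 2 lines per genotype, any other difference between these pairs of lines and the effect of Rif1 cannot be told apart. The p-values measure spread between the 2 lines within groups, pooled over all groups in the fit and drawn towards that of other genes. The other 4 libraries, made before OHT from the same lines and called WT and F/F, entered the fit and show which differences were there before deletion.

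RIF1 is a chromatin protein that sets when domains of the genome replicate and takes part in the repair of broken DNA, and it has been tied to the silencing of early embryonic genes in mESC. When mESC leave the naive state, genes of naive pluripotency are turned off and genes of the formative epiblast are turned on. In female cells this is also the time when Xist RNA, transcribed from the future inactive X chromosome, begins to silence that chromosome.

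Total counts ranged from 28600870 to 64808897 per library. Levels are given as CPM, counts scaled to each library's size after normalization by the trimmed mean of M values. Rif1 itself was at 1605 and 1455 CPM in WT mESC, 1382 and 1342 in WT EB, 702 and 662 in KO mESC, and 789 and 845 in KO EB, lower in both KO lines than in both WT lines at either stage. Before OHT Rif1 was at 1537 and 1752 CPM in the WT lines and 1172 and 1172 in the F/F lines, so part of the gap preceded deletion. The counts cover the whole gene, not only the floxed part. WT mESC replicate 1 stood apart from the other libraries: Lars2 took 0.869% of its counts and the median histone gene was at 12.7 CPM, against at most 0.140% and at least 31.0 CPM elsewhere. The EB and mESC libraries carry different run identifiers in their labels, so stage and sequencing run cannot be told apart. Run also coincides with OHT, so a change in level from before to after OHT cannot be told apart from a change of run. Within 1 condition both genotypes share the run.

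Differentiation changed most genes in both genotypes, and the size of the change often depended on genotype. WT cells raised 5554 and lowered 5107 of the 17115 genes tested, and KO cells raised 5371 and lowered 4729. The difference of changes passed the test in 4889 genes, 28.6% of those tested (edgeR quasi-likelihood F test, Benjamini-Hochberg adjusted p under 0.05). It was positive in 2541 genes (14.8%) and negative in 2348 (13.7%), and at least 2-fold in 789 and 808 of these. Without KO mESC replicate 4 or KO EB replicate 4 the negative calls numbered 1536 and 1543. In 4888 of the 4889 both KO lines lay on one side of both WT lines, which also held for 67.7% of all genes tested. Because the WT libraries enter both the WT change and the difference of changes, the count of genes with a smaller KO change can also take in genes whose WT change happened to be measured too large.

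Blunting was the most frequent class. Of the genes called, 1190 showed blunted induction: their median log2 change was 1.03 in WT and 0.16 in KO, and in 736 of them the KO change did not pass the test. Another 1246 showed blunted repression, with medians of -0.84 in WT and -0.19 in KO, and 662 of these had no KO change that passed. Blunted genes made up 21.4% of all genes induced in WT and 24.4% of all genes repressed in WT. Exaggerated induction was found for 373 genes and exaggerated repression for 411. The direction was reversed in 192 genes induced in WT and in 292 repressed in WT. A change called in KO and not in WT was found for 598 genes that rose and 525 that fell. The remaining 62 genes had no change that passed in either genotype, and 25 without WT mESC replicate 1.

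The class counts depended on single libraries. Blunted inductions numbered 791 without KO mESC replicate 4 and 736 without WT EB replicate 2. Exaggerated inductions numbered 228 to 247 without WT mESC replicate 1 or either WT EB library, and exaggerated repressions 264 and 272 without replicate 4 of KO mESC or KO EB. Reversals from induction numbered 318 without WT mESC replicate 2, and 117 to 122 without WT EB replicate 2 or replicate 4 of KO mESC or KO EB. Without KO mESC replicate 4 there were 193 reversals from repression, and 389 inductions and 345 repressions seen in KO and not in WT, the last falling to 336 without KO EB replicate 4. Blunting stayed the most frequent class in each of these settings.

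**Figure D1:**
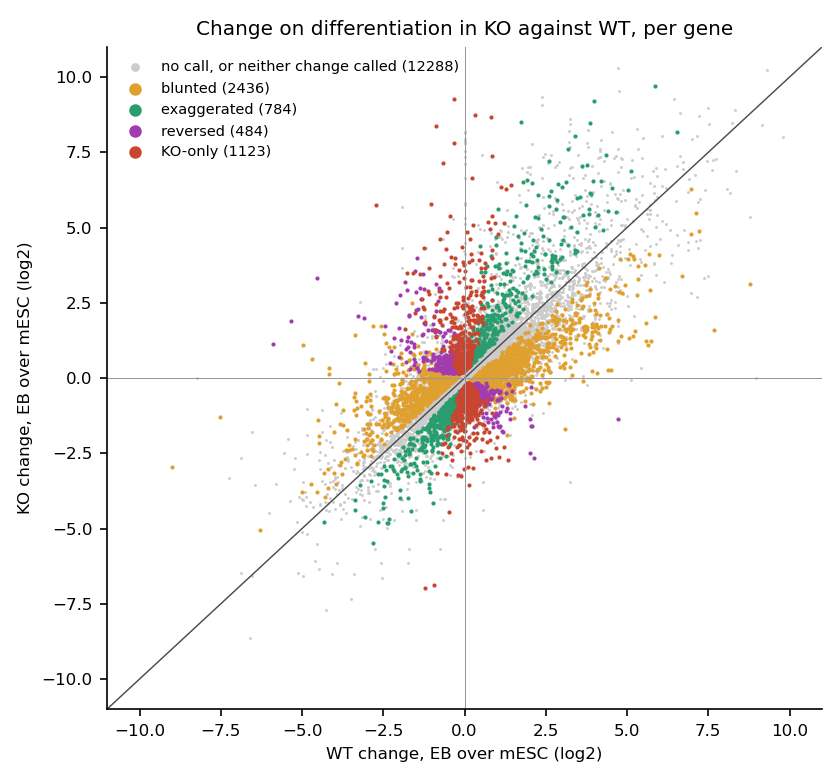
Each point is 1 of the 17115 genes tested, with the log2 change from mESC to EB in WT on the x axis and in KO on the y axis, coloured by response class. The diagonal marks equal change. The 2436 blunted genes lie between the diagonal and the horizontal axis or just past it, and the 484 reversed genes fill the upper left and lower right.

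A difference of changes can come from the starting level, the end level or both. Among the blunted inductions, KO was already above WT in mESC for 592 genes and was below WT in EB for 689. The genotypes differed in mESC alone for 402 of these genes, in EB alone for 493, and in opposite directions at the 2 stages for 146. Among the blunted repressions, KO was below WT in mESC for 552 genes and above WT in EB for 831, with 335 differing in mESC alone and 516 in EB alone.

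**Figure D2:**
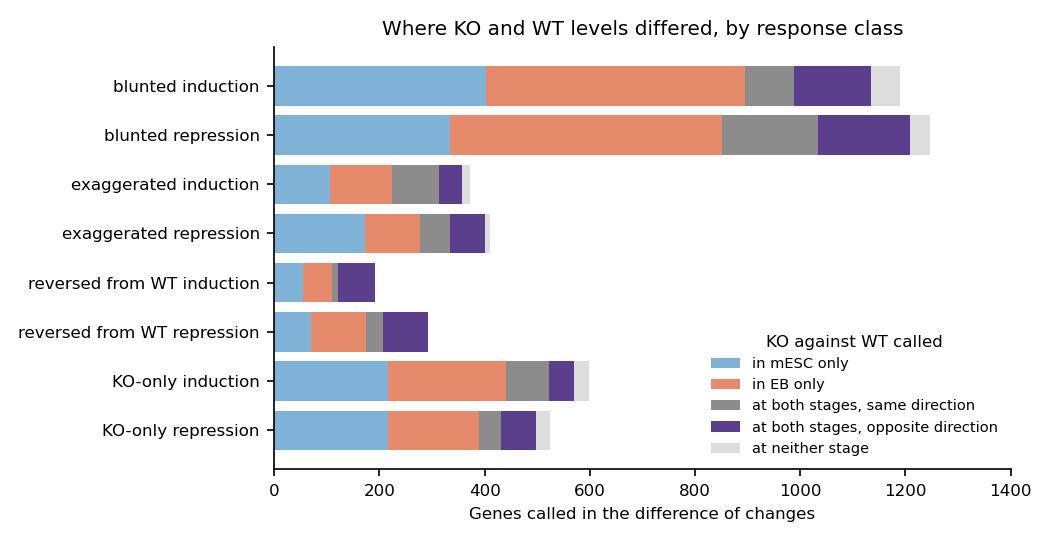
Bars give the number of genes in each response class, divided by the stage at which the KO and WT levels differed (adjusted p under 0.05). In both blunted classes the genes that differed in EB alone (493 and 516) outnumber those that differed in mESC alone (402 and 335).

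Many of the mESC differences were present before Rif1 was deleted. Of the 2894 called genes with a KO and WT difference in mESC, 1735 (60.0%) differed in the same direction between F/F and WT lines before OHT. The share was 49.7% for blunted induction, 55.3% for blunted repression and 80.3% for exaggerated repression. Among the genes named by rule, such a difference was present before OHT for Rif1, Tsix, Sall2, Dnmt3a, Tcl1, L1td1, T, Eomes, Evx1, Bmp4, Ccnd1, Ccnd2, Notum, Spry2, Klhl13, Dazl, Asz1, Meg3, Rian, Rtl1, Mir668, Dio3, Nefm, Nefl, Olig2 and Esx1. It was also present for Col4a1, Thy1, Col6a1, B2m, Mx1, Ddx3x, Rlim, Dnmt3l, Pcgf5, Pmaip1, Dhcr7 and Ebp, and for Ano1, Cxcl10, Guca1a, Islr2, Ffar3, Tbx20, Tll1, Scn3a, Phf11a, 1700018B24Rik, Ido2 and Tmem179. The same held for Tubb3, Smad2, Smad3 and Pfkm. Of the further examples it was present for Otx2, Lef1, Prdm14, Dppa3, Nr0b1, Klf5, Klf2, Esrrb, Zfp42, Pou5f1, Stat3, Sycp1, Taf7l, Mirg, Peg10, Sgce, H19 and Col1a2. Levels before OHT are given below for some of these genes only. Genes that differed before OHT without a same-direction difference in mESC after OHT are not counted here.

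Transcript GC content moved with the difference of changes. Its median was 0.18 in the lowest of 4 equal bins of genes by GC content, then 0.12 and -0.03, and -0.32 in the highest. The WT change followed GC upward, from a median of -0.03 in the lowest bin to 0.21 in the highest, and the KO change downward, from 0.14 to -0.08. Blunted inductions had a median GC content of 54.6% and blunted repressions 46.7%, with the median over all genes between them. After a correction for this trend, 4495 genes were called, of which 3495 (71.5% of the 4889) were shared and had the same sign. The part of GC content in single results was not tested beyond this, and the corrected value is given where it changes a call.

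Genes of the formative and primed epiblast rose less in KO. WT cells raised 19 of the 22 genes on this list and KO cells 18, but the difference of changes was negative in 10 and positive in 2 (1 with the cell line as a block, 0 without KO mESC replicate 4, 2 without WT mESC replicate 2 and 1 without any other single library), with a median of -0.64 against 0.01 over all genes. The GC-corrected median was -0.34. Of the members, 45.5% were negative and 9.09% positive, against 13.7% and 14.8% of all genes. Sall2, which encodes a zinc-finger transcription factor, was at 10.3 and 8.71 CPM in WT mESC, 109 and 112 in WT EB, 11.9 and 12 in KO mESC, and 43.5 and 42.5 in KO EB. Both genotypes started close together, and no KO EB library reached the WT EB level: the log2 change was 3.53 in WT and 1.85 in KO, a difference of changes of -1.68 ± 0.13 (adjusted p = 1.6e-07). Sox4, a SoxC transcription factor gene, was at 11.2 and 11.8 CPM in WT mESC, 64.9 and 76.6 in WT EB, 13 and 14.9 in KO mESC, and 28.7 and 28.6 in KO EB. It too was induced in both genotypes and reached a lower level in both KO EB libraries than in either WT EB library, with a difference of changes of -1.58 ± 0.16 (adjusted p = 2.1e-06).

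Dnmt3a, which encodes a de novo DNA methyltransferase, was at 100.1 and 101 CPM in WT mESC, 996 and 976 in WT EB, 66.3 and 68.3 in KO mESC, and 392 and 383 in KO EB. Its KO levels were below the WT levels at both stages, and the gap widened in EB, where the log2 difference between KO and WT was -1.35 against -0.57 in mESC. The difference of changes was -0.77 ± 0.11 (adjusted p = 8.2e-05). Otx2, a transcription factor gene of the forming epiblast, went from 50.4 and 59.5 to 194 and 165 CPM in WT and from 43.3 and 43.9 to 78.4 and 78.1 in KO. Pou3f1 (Oct6) and Sox12 were blunted as well, at -1.05 and -0.95, and for Sox12 the log2 change was 0.98 in WT and 0.03 in KO. Foxd3 fell in KO and was not called in WT, with a difference of changes of -1.47. Induction was larger in KO for Etv4 (1.30) and Lef1 (0.39).

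Blunting did not take in every formative gene. Fgf5, the classic marker of this state, was at 0.262 and 0.173 CPM in WT mESC, 67.5 and 66.8 in WT EB, 0.132 and 0.0924 in KO mESC, and 42.4 and 39.9 in KO EB, and its difference of changes of 0.26 ± 0.49 did not pass the test (adjusted p = 0.76). Dnmt3b was at 154 and 145 CPM in WT mESC, 1205 and 1238 in WT EB, 102 and 95.8 in KO mESC, and 776 and 784 in KO EB, and its value of -0.05 ± 0.10 did not pass either (adjusted p = 0.75). Both were lower in KO at either stage. Summed over the list, levels were 902 to 937 CPM in WT mESC and 748 to 760.5 in KO mESC, and reached 3957 to 3997 in WT EB and 2285 to 2313 in KO EB.

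Naive pluripotency genes responded in both directions. WT cells lowered 20 and KO cells 19 of the 25 list members. The difference of changes was positive in 9 (36%) and negative in 7 (28%), with a median of 0.00, or 0.17 after the GC correction. The shares over all genes were 14.8% and 13.7%. Nanog, a homeodomain factor of the pluripotency network, was at 971 and 882 CPM in WT mESC, 79.7 and 67.7 in WT EB, 806 and 885 in KO mESC, and 162 and 159 in KO EB. The mESC levels of the genotypes overlapped, whereas both KO EB libraries lay above both WT EB libraries: the log2 change was -3.65 in WT and -2.40 in KO, a difference of changes of 1.25 ± 0.12 (adjusted p = 9.7e-07). Fbxo15, an F-box gene expressed in pluripotent cells, was at 354 and 312 CPM in WT mESC, 111 and 95.7 in WT EB, 284 and 294 in KO mESC, and 352 and 365 in KO EB. It fell in WT and rose in KO, a difference of changes of 2.00 ± 0.11 (adjusted p = 2.4e-09).

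Tcl1, which encodes a coactivator of AKT kinase, was at 139 and 140.0 CPM in WT mESC, 27.6 and 26 in WT EB, 35.1 and 34.8 in KO mESC, and 21.4 and 23.1 in KO EB. Here the KO EB level was close to the WT EB level and the genotypes differed mainly at the start. The same gap was present before OHT, at 135 and 138 CPM in the WT lines and 22.3 and 22.4 in the F/F lines. Prdm14, a repressor of differentiation genes, showed blunted repression (1.34), as did Nr5a2 (0.61), and Dppa3 was reversed (1.84). In contrast, repression was larger in KO for Nr0b1 (-0.98), Tet2 (-0.76), Klf5 (-0.51) and Tbx3 (-0.48). Esrrb, Zfp42 and Klf2 were among the 9 members that did not pass. The summed level of the list was 7617 to 8162 CPM in WT mESC and 7830 to 8327 in KO mESC, and 2669 to 2741 in WT EB and 2609 to 2660 in KO EB.

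Every called member of the LIF pathway list was a blunted repression. LIF signals through JAK kinases to STAT3 and maintains the naive state. Of 16 members, 7 had a positive difference of changes and none a negative one, so that 43.8% were positive against 14.8% of all genes. There was 1 negative call with the cell line as a block and without replicate 3 of KO mESC or KO EB, and 2 without replicate 2 of WT mESC or WT EB. Jak1 was at 191 and 184 CPM in WT mESC, 98.5 and 106 in WT EB, 168 and 167 in KO mESC, and 133 and 137 in KO EB, with a difference of changes of 0.56 ± 0.09 (adjusted p = 0.0002). Its KO EB libraries were the higher ones, while its mESC levels lay closer together. Jak2 (0.70), the STAT3 target Pim1 (0.55), the feedback inhibitor Socs3 (0.53) and Stat3 itself (0.29) were also called. The median over the list was 0.26, while the median change was -0.92 in WT and -1.01 in KO.

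**Figure D3:**
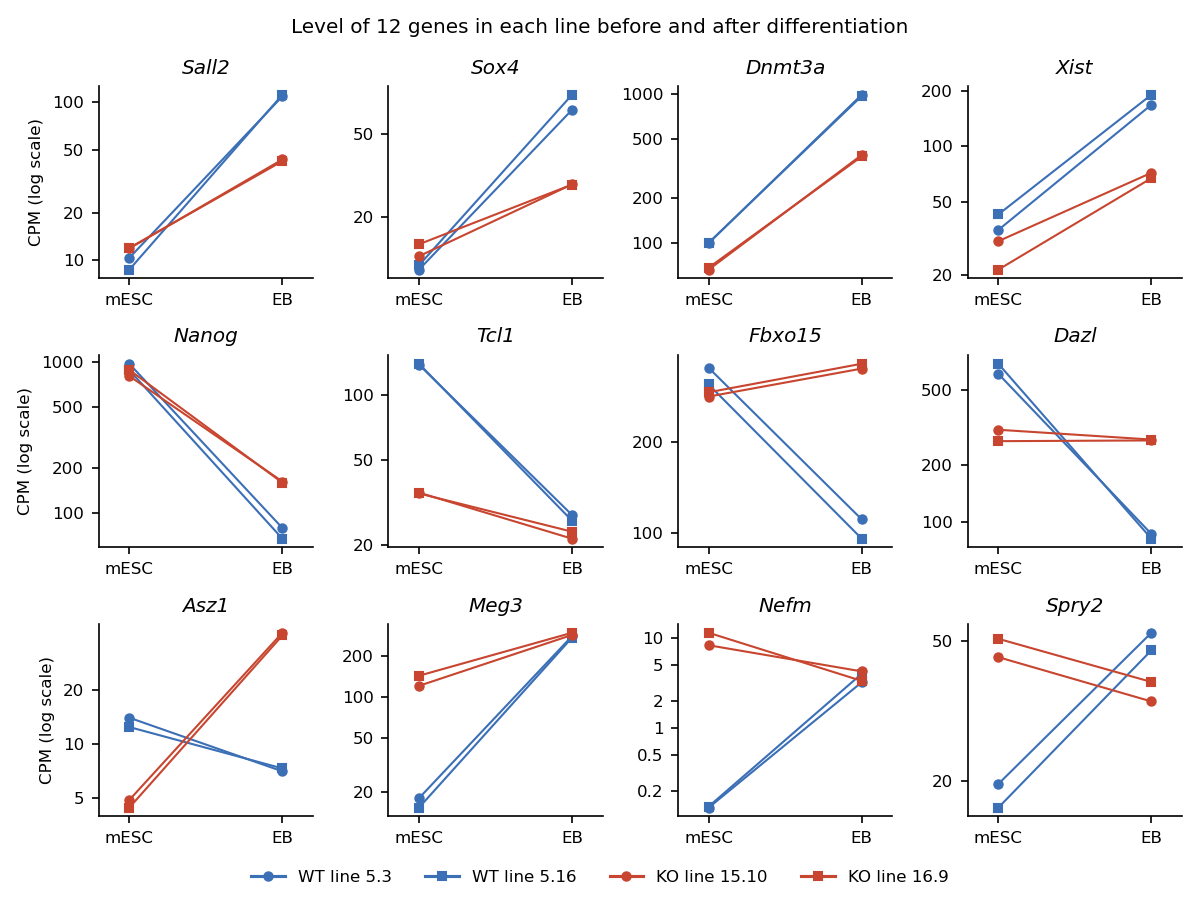
Levels of 12 genes in CPM on a log scale, with 1 line per cell line joining its mESC and EB libraries (blue, WT; red, KO). Sall2, Sox4, Dnmt3a and Xist rise less steeply in KO, Nanog, Tcl1 and Dazl fall less steeply, and the direction is reversed for Fbxo15, Asz1, Nefm and Spry2. For Tcl1, Meg3 and Nefm the mESC levels of the genotypes are far apart.

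In germline and meiosis genes the KO change was mostly above the WT change. Of 35 members, 22 (62.9%) had a positive difference of changes and 3 (8.57%) a negative one, with a median of 0.96. The shares over all genes were 14.8% and 13.7%. Leaving out 1 library at a time left 20 to 23 positive. WT cells raised 17 and lowered 12 of them, whereas KO cells raised 25 and lowered 1. These genes are normally kept silent outside germ cells by promoter methylation and by Polycomb-type complexes that bind E-box and E2F sites.

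The promoters of some list members are shown because E-box sites are part of that known silencing. The 250 bases before the RefSeq start are printed 5′ to 3′ on the gene's strand (build GRCm38.p6, all minus strand), with the E-box CACGTG in capitals. They lie at chr17:50293621-50293870 for Dazl, chr3:102936101-102936350 for Sycp1 and chrX:134476491-134476740 for Taf7l. Dazl is the member with the smallest adjusted p, and its window holds no CACGTG. Sycp1 and Taf7l are the members with the smallest adjusted p among those that hold it, a choice made after the values were seen.
Dazl: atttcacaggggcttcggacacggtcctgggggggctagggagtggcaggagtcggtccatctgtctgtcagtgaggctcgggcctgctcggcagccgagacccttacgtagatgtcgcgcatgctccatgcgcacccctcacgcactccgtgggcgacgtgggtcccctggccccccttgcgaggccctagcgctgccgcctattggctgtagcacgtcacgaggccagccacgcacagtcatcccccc
Sycp1: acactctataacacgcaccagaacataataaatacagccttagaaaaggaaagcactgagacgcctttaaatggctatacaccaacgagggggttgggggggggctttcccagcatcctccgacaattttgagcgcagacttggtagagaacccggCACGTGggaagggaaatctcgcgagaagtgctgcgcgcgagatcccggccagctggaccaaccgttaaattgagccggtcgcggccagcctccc
Taf7l: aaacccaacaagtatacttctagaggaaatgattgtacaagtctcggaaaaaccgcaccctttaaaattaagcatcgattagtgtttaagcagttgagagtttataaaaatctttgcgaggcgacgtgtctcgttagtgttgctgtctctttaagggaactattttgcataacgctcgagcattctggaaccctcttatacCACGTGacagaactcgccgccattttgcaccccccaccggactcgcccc
CACGTG was present in 14 of the 32 list members with a promoter entry (43.8%), in 8 of the 19 such members with a positive difference of changes (42.1%), and in 6.05% of all 27025 RefSeq promoters over the same 250 bases. CACGTG reads the same on both strands. The E2F motif GGCGGGA, searched on both strands, was present in 6 of the 32 (18.8%), in 3 of the 19 (15.8%) and in 9.76% of all promoters. A match is a match of letters only.

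Dazl, an RNA-binding protein gene of germ cells, was at 608 and 687 CPM in WT mESC, 86.5 and 81.7 in WT EB, 308 and 268 in KO mESC, and 273 and 270.2 in KO EB. It fell in WT while its KO change did not pass, and KO was below WT in mESC and above it in EB, a difference of changes of 2.86 ± 0.12 (adjusted p = 6.4e-11). Asz1, needed for piRNA production, was at 14 and 12.5 CPM in WT mESC, 7.06 and 7.33 in WT EB, 4.9 and 4.44 in KO mESC, and 41.6 and 40.2 in KO EB. It fell in WT and rose in KO, a difference of changes of 4.01 ± 0.18 (adjusted p = 1.5e-10). Pet2, an X-linked testis gene, was at 2.38 and 2.26 CPM in WT mESC, 1.27 and 0.711 in WT EB, 5.79 and 5.18 in KO mESC, and 43.5 and 41.4 in KO EB, and was likewise reversed, a difference of changes of 4.21 ± 0.25 (adjusted p = 4.2e-09).

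Sycp1, a component of the synaptonemal complex, was at 54.7 and 54.8 CPM in WT mESC, 59.3 and 63.4 in WT EB, 8.17 and 7.64 in KO mESC, and 39.4 and 38.7 in KO EB. KO was lower than WT at both stages and rose towards it, giving 2.14. Taf7l, an X-linked germ cell transcription factor subunit gene, was at 40.6 and 37 CPM in WT mESC, 46.7 and 56 in WT EB, 9.06 and 8.26 in KO mESC, and 32.5 and 28.7 in KO EB, again with a rise from a lower KO start and a value of 1.42. Before OHT the F/F lines were already low for these genes: Sycp1 was at 70.5 and 73 CPM in the WT lines and 4.3 and 3.11 in the F/F lines, and Dazl at 642 and 682 CPM in the WT lines and 97 and 84.9 in the F/F lines. Asz1 was at 12.6 and 12 CPM in the WT lines and 0.538 and 0.289 in the F/F lines at that time. Hormad1 (-0.70), Smc1b (-0.67) and Tdrd1 (-0.91) went the other way.

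Imprinted genes leaned to the negative side, with 5 positive (3 with the cell line as a block, or without WT EB replicate 1 or any 1 KO library) and 16 negative among 44 members and a median of -0.39. Of the members, 11.4% were positive and 36.4% negative, against 14.8% and 13.7% of all genes. The genes of the Dlk1-Dio3 domain on chromosome 12, which is expressed from 1 parental allele, held the largest values. Meg3, the maternally expressed long noncoding RNA of the domain, was at 18.1 and 15.4 CPM in WT mESC, 278 and 271 in WT EB, 120.3 and 143 in KO mESC, and 284 and 295 in KO EB. Both KO EB libraries lay slightly above both WT EB libraries and the genotypes were far apart in mESC, a difference of changes of -2.90 ± 0.14 (adjusted p = 3.7e-10). Rtl1 was at 2.69 and 2.49 CPM in WT mESC, 45.1 and 44.9 in WT EB, 16 and 16.8 in KO mESC, and 45.9 and 46.3 in KO EB, with a difference of changes of -2.62 ± 0.13 (adjusted p = 4.7e-10). Rian (-2.34), Mirg (-2.51), Dlk1 (-1.69) and the microRNA gene Mir668 (-3.41) were blunted too.

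The mESC difference in this domain preceded deletion. Before OHT, Meg3 was at 33.8 and 29.2 CPM in the WT lines and 184 and 158 in the F/F lines, and Rtl1 at 3.9 and 4.02 CPM in the WT lines and 19.3 and 20.1 in the F/F lines. Dio3, a deiodinase gene at the end of the domain, was at 3.93 and 2.45 CPM in WT mESC, 0.819 and 1.08 in WT EB, 41.5 and 44 in KO mESC, and 2.64 and 2.71 in KO EB. It fell in both genotypes from a KO start far above WT, so its repression was exaggerated, a difference of changes of -2.26 ± 0.34 (adjusted p = 0.00014), and its level before OHT was 1.77 and 2.11 CPM in the WT lines and 25.5 and 33.3 in the F/F lines. Outside the domain, Peg10 (-1.32), Sgce (-1.20), Asb4 (-1.99) and Peg3 (-0.77) were blunted inductions. H19 did not pass the test. Rian, Mirg and Mir668 lie in 1 transcribed stretch with Meg3, and reads of overlapping entries may have been shared between them. The labels do not state whether counts respect strand, so reads from the opposite strand may also enter the Rtl1 values.

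Lists of the germ layers and extraembryonic lineages differed in their share of calls. Among 15 early neural genes 4 were positive and 3 negative, 46.7% called against 28.6% of all genes. On the positive side, Tubb3 was at 49 and 52.8 CPM in WT mESC and 27 and 25.8 in WT EB. In KO it was at 33 and 29.1 CPM in mESC and 36.1 and 36.3 in EB. Its repression was blunted, a difference of changes of 1.17 ± 0.16 (adjusted p = 4.8e-05). Nefm, the medium neurofilament gene, was at 0.131 and 0.135 CPM in WT mESC, 3.21 and 4 in WT EB, 8.27 and 11.4 in KO mESC, and 4.24 and 3.33 in KO EB. It rose in WT and fell in KO, and the genotypes overlapped in EB, a difference of changes of -6.10 ± 0.41 (adjusted p = 2.0e-08). Its neighbour Nefl was at 4.9 and 5.42 CPM in WT mESC, 68.1 and 85.9 in WT EB, 37.8 and 38 in KO mESC, and 92.3 and 94.1 in KO EB and was blunted, a difference of changes of -2.61 ± 0.18 (adjusted p = 2.1e-08). Both were already high in F/F lines before OHT, where Nefm was at 0.264 and 0.0562 CPM in the WT lines and 7.9 and 8.99 in the F/F lines and Nefl at 8.52 and 6.8 CPM in the WT lines and 34.7 and 44.1 in the F/F lines. Olig2, a transcription factor gene of neural progenitors, gave 0 and 1 counts in KO mESC and was at 0.0534 and 0.172 CPM in KO EB, against 18.8 and 21.2 in WT mESC and 6.06 and 6.89 in WT EB. It was as low before OHT (0 and 0.0241 CPM in F/F). With so few counts no fold is given, and the call was lost without KO EB replicate 4 (adjusted p = 0.16).

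In the primitive streak, mesoderm and endoderm list, 3 of 18 members (16.7%) were positive and 0 negative, against 14.8% of all genes positive. T (brachyury), the defining transcription factor of the streak, was at 7.95 and 8.67 CPM in WT mESC, 2 and 1.5 in WT EB, 0.959 and 0.647 in KO mESC, and 1.63 and 1.34 in KO EB. It fell in WT and rose in KO, and the WT mESC libraries were far above the other libraries compared. Before OHT it was at 8.84 and 8.46 CPM in the WT lines and 0.929 and 1.01 in the F/F lines, so the low KO start was already there. Its values gave a difference of changes of 3.16 ± 0.32 (adjusted p = 2.1e-06). Eomes rose in both genotypes and more in KO (0.78), and Evx1 showed blunted repression (1.34). The summed level of the list was 42.8 to 46.1 CPM in WT mESC and 29.4 to 31.6 in KO mESC, and overlapped in EB at 108 to 127 in WT and 117 to 128 in KO.

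Trophoblast genes gave 4 positive and 3 negative calls among 16 (43.8%), the negative ones falling to 1 without KO mESC replicate 4 or WT EB replicate 2. Tfap2c, a transcription factor gene shared by trophoblast and germ cells, was at 56.1 and 60.3 CPM in WT mESC, 16.3 and 16.4 in WT EB, 58 and 65.6 in KO mESC, and 44.3 and 43.8 in KO EB, and its repression was blunted, a difference of changes of 1.34 ± 0.11 (adjusted p = 2.3e-07). Gata2 (1.34) and the X-linked Esx1 (1.86) were also blunted repressions. The trophoblast genes named here are all on the positive side, and the list median was 0.15. Primitive endoderm genes gave 3 negative and no positive calls among 21 (14.3%; 1 positive without KO mESC replicate 3): Gata4 (-1.05) and Col4a1 (-0.66) fell more in KO, and Sox7 was blunted at levels under 1 CPM. Feeder fibroblast genes gave 1 positive (2 with the cell line as a block or without WT mESC replicate 1) and 3 negative calls among 16, with Vim, Thy1, Col6a1 and Col1a2 called. That was 25% of the feeder fibroblast list, against 28.6% called of all genes. The summed level of the list was 2521 to 2535 CPM in WT mESC and 2909 to 3548 in KO mESC, and 1103 to 1116 in WT EB and 1246 to 1283 in KO EB. Col1a2, a defining fibroblast gene, was at 0.0164 and 0 CPM in WT mESC and at most 2.59 CPM in any library compared. The part of such cells in the other results was not tested. In bulk RNA, fewer cells of a type and less RNA per cell cannot be told apart.

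Signalling targets were split by pathway. The MAPK feedback list holds genes that dampen ERK signalling, such as Spry2, and also other genes, among them Fos, Egr1 and Klhl13. It had 9 positive and 7 negative members of 23, 69.6% called against 28.6% of all genes. Spry2, an inhibitor of receptor tyrosine kinase signalling, was at 19.6 and 16.8 CPM in WT mESC, 52.6 and 46.9 in WT EB, 44.8 and 50.6 in KO mESC, and 33.6 and 38.1 in KO EB. It rose in WT and fell in KO, a difference of changes of -1.86 ± 0.14 (adjusted p = 4.7e-08), and F/F cells were already high before OHT at 55.3 and 54.9 CPM, against 14.5 and 15.1 in WT. Klhl13, an X-linked ubiquitin ligase adaptor gene, was at 219 and 207 CPM in WT mESC, 288 and 269 in WT EB, 332 and 311 in KO mESC, and 779 and 779 in KO EB, an exaggerated induction of 0.89 ± 0.09 (adjusted p = 2.1e-06), and was higher in the F/F lines before OHT as well, at 467 and 465 CPM against 300.3 and 289 in the WT lines. Fos (2.15) and Egr1 (2.39) were blunted repressions, but Egr1 was at 28.3 and 4.63 CPM in the replicates of WT mESC, a wide gap. With the GC correction, and also without KO mESC replicate 4 or WT EB replicate 2, 4 members in place of 7 were negative, and without KO mESC replicate 3, 5 in place of 9 were positive.

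Of the BMP targets and ligands 5 of 14 members (35.7%) were positive, against 14.8% of all genes, and none negative (1 without WT mESC replicate 2). The median change of the list was -0.39 in WT and -0.57 in KO, and the median difference of changes 0.22. Id3, an inhibitor of differentiation factors and direct BMP target, was at 12.4 and 18 CPM in WT mESC, 13.3 and 16 in WT EB, 5.79 and 7.15 in KO mESC, and 42.5 and 41.3 in KO EB. Its change in WT did not pass the test, and it rose in both KO lines from a lower start, a difference of changes of 2.74 ± 0.37 (adjusted p = 4.5e-05). Bmp4 was at 6.59 and 6.36 CPM in WT mESC, 6.79 and 5.62 in WT EB, 2.15 and 2.74 in KO mESC, and 6.38 and 5.94 in KO EB, with no overlap in mESC and overlap in EB, a difference of changes of 1.40 ± 0.25 (adjusted p = 0.00057). Before OHT Bmp4 was at 1.93 and 2.36 CPM in the WT lines and 0.318 and 0.482 in the F/F lines. Id1 (1.01), Id4 (1.14) and Smad9 (1.13) were also positive. In the Nodal signalling list the share of positive calls was 33.3%. Nodal signalling also gave 5 positive calls and no negative one, among 15 members (2 positive without KO EB replicate 3, and 3 without KO mESC replicate 3 or WT EB replicate 1; 3 negative without WT mESC replicate 2 and 1 without KO mESC replicate 3), with Nodal itself at 0.46.

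Among 16 Wnt targets 4 were positive (2 without replicate 3 of KO mESC or KO EB or either WT EB library) and 2 negative (1 without WT mESC replicate 1, WT EB replicate 1, KO mESC replicate 4 or either KO EB library). Of these targets 37.5% were called, against 28.6% of all genes. The D cyclins, which drive entry into the cell cycle, had changes that passed in KO and not in WT: Ccnd1 was at 127 and 137 CPM in WT mESC, 129.9 and 119 in WT EB, 68.7 and 66.8 in KO mESC, and 136 and 147 in KO EB, a difference of changes of 1.15 ± 0.10 (adjusted p = 5.2e-07), and the value for Ccnd2 was 2.00. For Ccnd1 the KO mESC libraries were the low ones and the EB levels lay close together. The gap was wider before OHT, at 129 and 119 CPM in the WT lines and 32.8 and 34.8 in the F/F lines. Notum, a secreted Wnt inhibitor, was at 28.6 and 34 CPM in WT mESC, 14.7 and 13.4 in WT EB, 7.71 and 8.23 in KO mESC, and 1.17 and 1.13 in KO EB and fell more in KO, a difference of changes of -1.63 ± 0.29 (adjusted p = 0.00048). It too was lower in the F/F lines before OHT, at 4.4 and 6.15 CPM against 10.9 and 15.7 in the WT lines.

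Genes of the two-cell-like state, such as the Zscan4 cluster expressed in rare mESC that resemble the early embryo, had 18 positive and no negative calls among 30 tested members of 40 listed, with a median of 2.44. The share of positive calls was 60%, against 14.8% of all genes. In 3 members a group was at 0, and with these at a floor of 3 counts per library the median was 2.73. WT cells raised 25 and KO cells 27 of them. Without WT mESC replicate 1, however, 7 members were called and the median was 1.42. Zfp352 was at 0.0819 and 0.0193 CPM in WT mESC, 0.819 and 0.564 in WT EB, 0.331 and 0.216 in KO mESC, and 31.9 and 40.3 in KO EB, and Zscan4d, which did not pass, at 0.197 and 0.0578 CPM in WT mESC, 3.43 and 2.26 in WT EB, 0.463 and 1.11 in KO mESC, and 48.5 and 59.6 in KO EB. The levels in mESC are near the counting limit, while both KO EB libraries stand far above both WT EB libraries. Zscan4d shares 49.6% of its 50-base words with other genes, so its reads may have been split between copies, and Zfp352 shares 7.10%. Among the other Zscan4 genes tested the share ran from 63.6% for Zscan4a to 90.1% for Zscan4b. Copies that share words were counted as separate members of the list. Pramel6 (3.10) and Pramel7 (2.32) were blunted repressions. Pramel7 was at 28.3 and 24 CPM in WT mESC, 1.64 and 0.76 in WT EB, 32 and 26.5 in KO mESC, and 6.89 and 6.11 in KO EB.

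The interferon response list had 6 positive and no negative calls among 28. Of its members 21.4% were positive, against 14.8% of all genes, and none negative, against 13.7%. The share called in either direction was 21.4%, against 28.6% of all genes. Leaving out 1 library gave 4 to 6 positive calls, and 1 negative one without WT EB replicate 1. B2m, the light chain of class I histocompatibility molecules, was at 18 and 16.6 CPM in WT mESC, 8.31 and 9.29 in WT EB, 23.6 and 22.3 in KO mESC, and 24.9 and 28 in KO EB. It fell in both WT lines while its KO change did not pass, a difference of changes of 1.18 ± 0.14 (adjusted p = 1.5e-05). Mx1 (1.99) was a blunted repression too. Of the calls, 3 were blunted and 3 exaggerated. Most members of the list rose in both genotypes, with a median change of 1.92 in WT and 1.89 in KO. WT cells raised 17 and lowered 7 of them, and KO cells raised 17 and lowered 5.

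**Figure D4:**
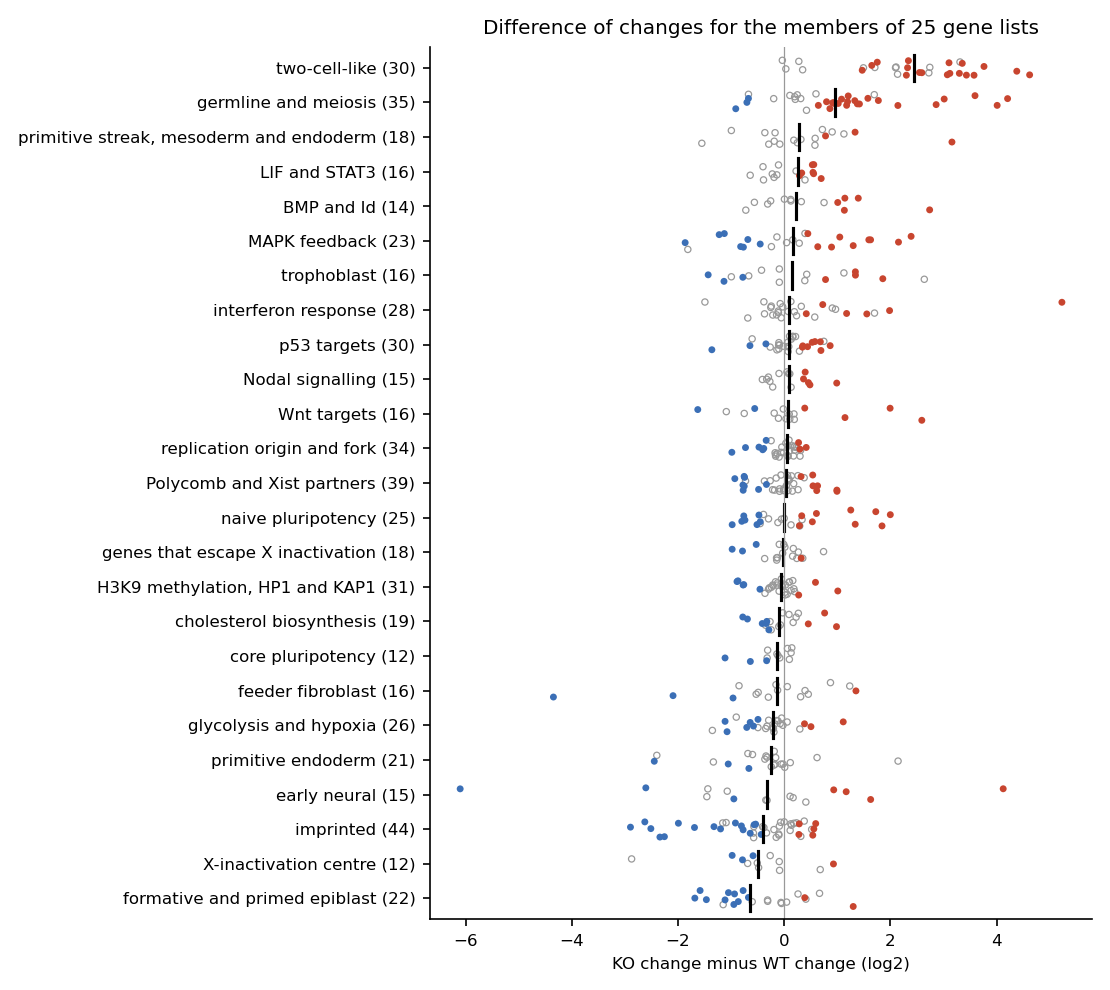
Difference of changes (log2) for every tested member of the 25 gene lists, with the number tested in brackets. Filled points passed the test (red, KO change above WT change; blue, below), open points did not, and the black bar is the list's median. The two-cell-like and germline lists lie furthest to the right and the formative list furthest to the left.

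Outside the lists, the largest differences of each class were taken by a rule on size, among genes with a mean log2 CPM of at least 0. Among reversals from repression, the X-linked 4930550L24Rik was at 40.5 and 38.5 CPM in WT mESC, 4.49 and 3.78 in WT EB, 48.2 and 45.3 in KO mESC, and 202 and 187 in KO EB, a difference of changes of 5.32 ± 0.13 (adjusted p = 2.1e-14). Its mESC levels lay close together after OHT and its EB levels were far apart. Before OHT it was at 27.3 and 26.5 CPM in the WT lines and 3.77 and 4.24 in the F/F lines. Colgalt2, a collagen galactosyltransferase gene, was at 10.4 and 9.39 CPM in WT mESC, 3.06 and 1.99 in WT EB, 8.37 and 6.9 in KO mESC, and 50.7 and 53.5 in KO EB, a difference of changes of 4.77 ± 0.23 (adjusted p = 3.6e-10). Tmem132c was at 15.8 and 16.2 CPM in WT mESC, 4.37 and 3.04 in WT EB, 16.5 and 14.6 in KO mESC, and 86 and 89.4 in KO EB, with 4.62, and overlapped between genotypes in mESC. Phf11a had the largest value of this class (7.01), but gave 0 and 4 counts in WT EB, so the size of that value is uncertain. It also shares 35.3% of its 50-base words with another gene, so its counts are uncertain as well.

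Reversals from induction were led by Nefm and, among genes outside the lists, by Tll1, a secreted protease gene, at 1.13 and 0.848 CPM in WT mESC, 3.82 and 4.41 in WT EB, 17 and 17.9 in KO mESC, and 5.95 and 5.46 in KO EB. Tll1 was high in KO mESC alone, and the EB levels lay close together, a difference of changes of -3.65 ± 0.27 (adjusted p = 6.3e-08). Its level before OHT was 0.264 and 0.309 CPM in the WT lines and 7.19 and 10.4 in the F/F lines. The sodium channel gene Scn3a (-2.93) and the testis kinase gene Tssk6 (-3.38) followed.

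Several genes rose in KO without a called change in WT. Atp4b encodes a subunit of the proton pump of the stomach and was at 0.164 and 0.173 CPM in WT mESC, 0.0606 and 0.0981 in WT EB, 1.36 and 1.17 in KO mESC, and 63.4 and 75.5 in KO EB, a difference of changes of 6.80 ± 0.61 (adjusted p = 5.8e-07). Prr18 was at 0.443 and 0.578 CPM in WT mESC, 0.334 and 0.343 in WT EB, 1.36 and 1.23 in KO mESC, and 24.6 and 26.1 in KO EB, and Lmx1a, a LIM-homeodomain gene, at 0.869 and 1.1 CPM in WT mESC, 0.94 and 0.441 in WT EB, 1.98 and 1.91 in KO mESC, and 17.4 and 17.6 in KO EB. In each of these the WT libraries of both stages stayed at or under 1.10 CPM. The values for 1700018B24Rik, Prr18 and Lmx1a were 4.08, 4.86 and 3.71.

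Exaggerated inductions included Nell1, a secreted protein gene, at 0.246 and 0.328 CPM in WT mESC, 1.12 and 0.907 in WT EB, 0.463 and 0.431 in KO mESC, and 37.8 and 43.7 in KO EB. Both KO EB libraries stood far above the rest, a difference of changes of 4.69 ± 0.53 (adjusted p = 6.7e-06). The guanylate cyclase activator gene Guca1a (3.91) also rose more in KO, as did Gm1995 (4.58), which shares 44.3% of its 50-base words with another gene. Exaggerated repressions often began from a high KO level. Tbx20, a T-box gene of the heart, was at 4.69 and 6.63 CPM in WT mESC, 0.91 and 1.25 in WT EB, 71.6 and 71.9 in KO mESC, and 2.32 and 2.75 in KO EB, a difference of changes of -2.48 ± 0.30 (adjusted p = 1.3e-05), and was at 7.54 and 9.45 CPM in the WT lines and 127 and 120.3 in the F/F lines before OHT. Islr2 (-2.78) and the fatty acid receptor gene Ffar3 (-2.68) were of the same class. Among repressions seen in KO and not in WT, Ido2 (-3.26), Tmem179 (-2.57), Ubap1l (-2.35) and Hlf (-2.35) had the largest values.

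The largest blunted induction among genes at this level was that of Pcdh18, a cell adhesion gene, at 0.164 and 0.0771 CPM in WT mESC, 7.94 and 6.82 in WT EB, 1.19 and 0.924 in KO mESC, and 4.22 and 4.43 in KO EB. KO stood above WT in mESC and below it in EB, a difference of changes of -3.83 ± 0.42 (adjusted p = 4.5e-06). Cnr1, the cannabinoid receptor gene, was at 0.508 and 0.482 CPM in WT mESC, 24.9 and 26.8 in WT EB, 0.86 and 1.08 in KO mESC, and 7.13 and 7.83 in KO EB, with the larger gap in EB and a difference of changes of -2.76 ± 0.28 (adjusted p = 2.1e-06). Among blunted repressions, St8sia6, a sialyltransferase gene, was at 7.19 and 6.34 CPM in WT mESC, 0.515 and 0.417 in WT EB, 7.11 and 7.73 in KO mESC, and 6.06 and 7.21 in KO EB. Its mESC levels after OHT overlapped and only the WT EB libraries were low, a difference of changes of 3.70 ± 0.27 (adjusted p = 4.7e-08). Before OHT it was at 9.94 and 8.6 CPM in the WT lines and 3.2 and 3.25 in the F/F lines. Ano1, a chloride channel gene, had 3.57 with a low KO level in mESC, 4.1 and 1.57 CPM against 50.6 and 41.5 in WT. Before OHT it was at 5.3 and 6.89 CPM in the WT lines and 0.562 and 0.434 in the F/F lines. The WT level in mESC after OHT was thus above that before OHT, which was measured in another run. In WT EB the level was 7.58 and 3.56 CPM.

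X-linked genes had the higher change in KO far more often than the lower one. Of 679 X-linked genes tested, 247 (36.4%) had a positive difference of changes and 33 (4.86%) a negative one, against 14.0% and 14.1% of 16399 autosomal genes. The negative X-linked calls numbered 20 without KO mESC replicate 3 and 19 without WT EB replicate 2. The X-linked median was 0.36, and the medians of single autosomes ran from -0.15 for chromosome 17 to 0.12 for chromosome 1. The X-linked minus autosomal median was 0.35, and 0.25 with the GC correction. Within the 4 bins of GC content it was 0.28, 0.24, 0.19 and 0.26. The X-linked calls included 115 blunted repressions, 49 reversals from repression and 55 inductions seen in KO and not in WT.

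X-linked counts as a share of autosomal counts were 5.04% and 5.06% in WT mESC, falling to 4.42% and 4.59% in WT EB. In KO they were 5.05% and 4.78% in mESC and 5.47% and 5.38% in EB. Both WT lines therefore changed by -0.62 and -0.46 percentage points, and both KO lines by 0.42 and 0.60. An exact two-sided permutation test over the 4 lines gave p = 0.333, the smallest it can give. Before OHT, WT libraries were at 5.31% and 5.40%, and F/F libraries at 5.07% and 4.91%.

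**Figure D5:**
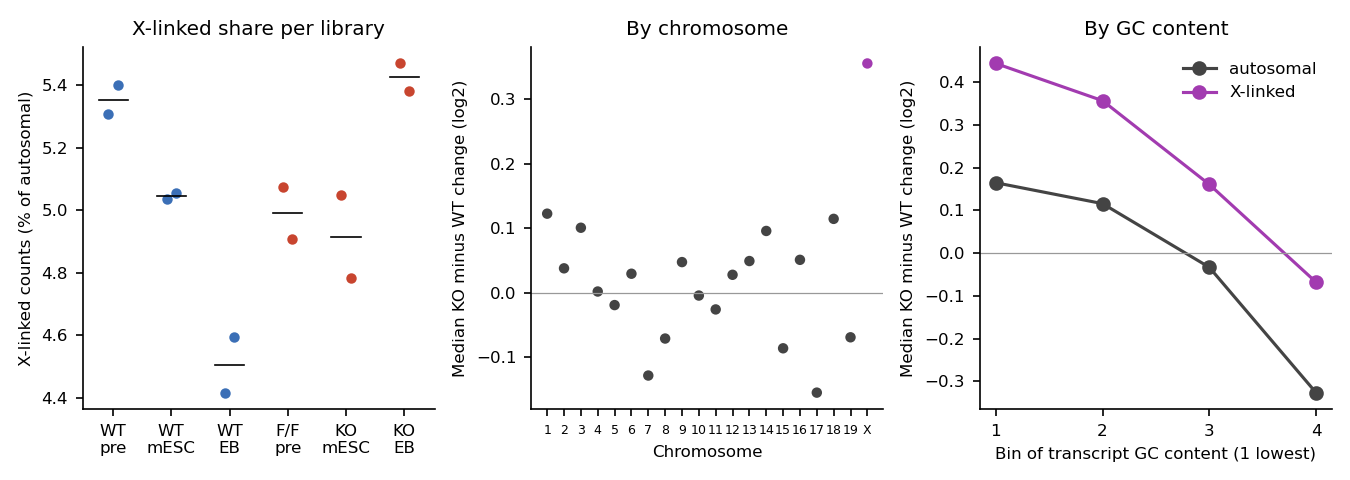
Left, X-linked counts as a percent of autosomal counts in each library (blue, WT; red, KO and F/F; pre, before OHT), with the mean of each group as a bar. Middle, the median difference of changes by chromosome. Right, the same median for X-linked and autosomal genes by bin of transcript GC content, from low to high. The KO EB libraries (5.47% and 5.38%) lie above and the WT EB libraries (4.42% and 4.59%) below their mESC libraries, and X-linked genes lie above autosomal genes in each bin.

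Xist, the RNA that starts silencing, was at 35.1 and 42.6 CPM in WT mESC, 168 and 191 in WT EB, 30.5 and 21.4 in KO mESC, and 71.8 and 67.1 in KO EB. It rose in all 4 lines and reached less in both KO lines: the log2 change was 2.21 in WT and 1.42 in KO, a difference of changes of -0.79 ± 0.21 (adjusted p = 0.009). This call is close to the threshold, since it was lost without KO mESC replicate 3 (a value of -0.51, adjusted p = 0.082) and with DESeq2 (adjusted p = 0.052). Tsix, which overlaps Xist on the opposite strand and represses it, was at 4.54 and 3.26 CPM in WT mESC, 5.28 and 4.41 in WT EB, 7.04 and 5.42 in KO mESC, and 6.57 and 6.21 in KO EB and was not called (-0.26 ± 0.25, adjusted p = 0.47). Whether the counts respect strand is not stated in the labels, so reads of Xist and Tsix cannot be told apart.

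Ftx, a noncoding RNA gene that promotes Xist expression, was at 6.18 and 6.05 CPM in WT mESC, 34.1 and 33.8 in WT EB, 7.64 and 6.22 in KO mESC, and 19.6 and 19.3 in KO EB, a blunted induction of -0.98 ± 0.18 (adjusted p = 0.00061). The neighbouring Chic1 was blunted as well (-0.59). Rlim, the X-linked ubiquitin ligase gene that activates Xist, went the other way, at 409 and 416 CPM in WT mESC, 940.1 and 897 in WT EB, 356 and 343 in KO mESC, and 1476 and 1486 in KO EB. Its induction was larger in both KO lines, a difference of changes of 0.93 ± 0.09 (adjusted p = 7.5e-07). The X-inactivation centre list thus held 1 positive and 3 negative calls among 12, 33.3% called against 28.6% of all genes. For the list of genes known to escape X inactivation the share called was 22.2%. Of 18 genes known to escape X inactivation 1 was positive (Ddx3x, 0.32, lost with the GC correction and in 6 of the settings that leave out 1 library) and 3 were negative, Xist and Ftx among them (1 negative without KO mESC replicate 3).

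Chromatin regulators were called in both directions. The list of H3K9 methylation, HP1 and KAP1 silencing had 3 positive and 5 negative calls among 31, 25.8% called against 28.6% of all genes. There were 11 negative calls after the GC correction and 8 without WT mESC replicate 1, and 1 positive call without WT mESC replicate 1, WT EB replicate 1, KO EB replicate 4 or either KO mESC library. Dnmt3l, the cofactor of the de novo methyltransferases, was at 150.4 and 139.7 CPM in WT mESC, 787 and 809 in WT EB, 84.7 and 82.7 in KO mESC, and 941 and 913 in KO EB. It started lower in KO and ended slightly higher, a difference of changes of 1.01 ± 0.09 (adjusted p = 5.5e-07). Ehmt2, the H3K9 methyltransferase G9a, fell in KO without a called change in WT (-0.87). Polycomb and Xist partner genes had 7 positive and 8 negative calls among 39 (38.5%), among them Kdm2b (-0.75) and Cbx7 (-0.75) on the negative side and Pcgf5 (0.99) and Rbbp7 (0.61) on the positive side. Cbx7, a reader subunit of Polycomb complexes, was at 113 and 115 CPM in WT mESC, 203 and 196 in WT EB, 115 and 127 in KO mESC, and 126 and 126 in KO EB, and its change passed in WT and not in KO.

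Genes of replication, p53 response and metabolism were called in both directions. Replication origin and fork genes had 3 positive (1 with the cell line as a block) and 6 negative calls among 34, 26.5% called against 28.6% of all genes. Leaving out 1 library gave 1 (without WT mESC replicate 1, KO mESC replicate 4, WT EB replicate 2 or either KO EB library) to 7 (without WT mESC replicate 2) positive calls, and 3 negative ones without KO mESC replicate 3. Pold1, the catalytic subunit of DNA polymerase delta, was at 171 and 265 CPM in WT mESC, 308 and 331 in WT EB, 255 and 256 in KO mESC, and 193 and 185 in KO EB, a reversal of -0.99 ± 0.18 (adjusted p = 0.00059). Its WT mESC replicates were far apart. Among 30 p53 targets (36.7% called) 8 were positive (5 without WT mESC replicate 1), led by Pmaip1 (0.68) and the X-linked Eda2r (0.69), and 3 negative (1 without WT EB replicate 2 or replicate 4 of KO mESC or KO EB). Cdkn1a and Mdm2 did not pass. Glycolysis and hypoxia genes had 3 positive and 6 negative calls among 26 (34.6%). Slc2a3, a glucose transporter gene, was at 2009 and 2040.0 CPM in WT mESC, 329.7 and 318 in WT EB, 1984 and 2069 in KO mESC, and 675 and 727 in KO EB, with overlapping levels in mESC and higher in both KO EB libraries, a difference of changes of 1.11 ± 0.10 (adjusted p = 5.7e-07). Cholesterol biosynthesis genes had 3 positive and 6 negative calls among 19 (47.4%), the negative ones falling to 1 without WT EB replicate 2, 2 without KO EB replicate 3 and 3 without KO mESC replicate 4, with Dhcr7 reversed (0.99) and the X-linked Ebp a blunted repression (0.76). Core pluripotency genes had no positive and 3 negative calls among 12 (5 negative without WT mESC replicate 2), L1td1 (-0.64), Utf1 (-1.11) and Zscan10 (-0.33, lost with the GC correction). In the core list 25% were negative, against 13.7% of all genes, and none positive, against 14.8%. The share called in either direction was 25%, against 28.6% of all genes, and Pou5f1 and Sox2 did not pass.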

How the data were processed

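The deposited table gives whole-number counts of reads for 24391 gene symbols in 12 libraries, raw, as the authors made them. The submitters' processing notes name BWA, HTSeq, DESeq2 and mm9, with no version or role. Libraries were grouped by genotype, OHT and stage as labelled. F/F titles carry both a KO and a WT name, and were read as undeleted because those cells had no OHT.

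The counts entered edgeR 4.0.16 (R 4.3.3): TMM normalization, filterByExpr (17115 genes kept), a quasi-likelihood F test over all 6 groups, and Benjamini-Hochberg adjustment over all genes at 0.05. Contrasts were KO change less WT change, each change alone, and KO less WT at each stage. The common dispersion had a square root of 0.0717. A value after ± is the standard error of the fit, and paired levels are the 2 libraries of a group. A class needs a called difference of changes. In blunted genes it is opposite in sign to a called WT change, and the KO change is not called in the opposite direction. In exaggerated genes it has the sign of the called WT change. In reversed genes both changes are called, with opposite signs. The script was tested on simulated data.

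Members, lists and tests were chosen with earlier results of these data known. Genes named by rule were Rif1, Xist and Tsix, the 4 with the largest difference in each class (log2 CPM averaging 0 or more, both KO lines on one side of both WT lines), and from each list up to 3 called members, taken by smallest adjusted p. Some of these are not reported here. Other genes are examples chosen after their values were seen. Symbols were matched by name to GRCm38 annotation for chromosome, transcript GC content and shared 50-base words (23175 by RefSeq symbol, 1096 by synonym, 25 by GENCODE symbol). Promoters are from RefSeq (GRCm38.p6). The count table was made on another build, so no coordinates were combined.

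Alternatives were DESeq2 size factors, no filter, the 8 libraries alone, the cell line as a block, DESeq2 1.42.0, each library left out, and a GC correction added after the data were seen. Replicate numbers pair mESC and EB libraries, since they name the same cell line. Deviations of such pairs from their group means correlated across genes at 0.0283 in WT and -0.00289 in KO. Precision is limited by 2 libraries per group and by 28600870 to 64808897 counts per library. Where a group was at 0, a floor of 3 counts per library was used, which covers counting error only.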

Additional observations from a re-analysis of the deposited data

Results flagged for a closer look

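The genes below were named by the rule and their difference of changes passed the test, a difference between genotypes in the same contrast. The values are log2 differences of changes, KO less WT, from the edgeR quasi-likelihood test. Genes with at most 3 counts in both libraries of a group are left out, since a fitted value there is no fold.

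Blunted inductions had a value of -3.83 for Pcdh18, -3.41 for Mir668, -2.90 for Meg3, -2.76 for Cnr1, -2.62 for Rtl1, -2.61 for Nefl, -2.45 for Sox7 and -2.34 for Rian. In the same class it was -1.68 for Sall2, -1.58 for Sox4, -1.11 for Utf1, -1.08 for Ldhb, -0.98 for Ftx, -0.96 for Vim, -0.95 for Sox12 and -0.79 for Xist. Next came -0.77 for Dnmt3a, -0.75 for Cbx7, -0.73 for Cdt1, -0.64 for Pidd1, -0.64 for L1td1, -0.59 for Chic1 and -0.33 for Zscan10.

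Blunted repressions had a value of 3.70 for St8sia6, 3.57 for Ano1, 3.10 for Pramel6, 2.86 for Dazl, 2.32 for Pramel7, 1.99 for Mx1 and 1.86 for Esx1. In the same class it was 1.73 for Tcl1, 1.34 for Gata2, 1.34 for Tfap2c, 1.34 for Evx1, 1.25 for Nanog, 1.18 for B2m, 1.17 for Tubb3 and 1.13 for Smad9. Next came 1.11 for Slc2a3, 0.76 for Ebp, 0.70 for Jak2, 0.56 for Jak1, 0.55 for Pim1, 0.40 for Smad2 and 0.32 for Ddx3x.

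Exaggerated inductions had a value of 4.69 for Nell1, 4.58 for Gm1995, 3.91 for Guca1a, 1.35 for Thy1, 1.01 for Dnmt3l and 0.93 for Rlim. In the same class it was 0.89 for Klhl13, 0.78 for Eomes and 0.68 for Pmaip1.

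Exaggerated repressions had a value of -2.78 for Islr2, -2.68 for Ffar3, -2.48 for Tbx20, -2.26 for Dio3, -1.63 for Notum, -1.05 for Gata4, -0.78 for Tm7sf2 and -0.66 for Col4a1.

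Genes induced in WT and repressed in KO had a value of -6.10 for Nefm, -3.65 for Tll1, -3.38 for Tssk6, -2.93 for Scn3a, -1.86 for Spry2, -0.99 for Pold1 and -0.75 for Kdm2b.

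Genes repressed in WT and induced in KO had a value of 7.01 for Phf11a, 5.32 for 4930550L24Rik, 4.77 for Colgalt2, 4.62 for Tmem132c, 4.21 for Pet2, 4.01 for Asz1, 3.76 for B020004J07Rik and 3.16 for T. In the same class it was 2.00 for Fbxo15, 1.59 for Fosl2, 0.99 for Pcgf5, 0.99 for Dhcr7 and 0.42 for Orc4.

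Genes induced in KO without a called WT change had a value of 6.80 for Atp4b, 4.86 for Prr18, 4.08 for 1700018B24Rik, 3.71 for Lmx1a, 2.74 for Id3, 2.00 for Ccnd2, 1.40 for Bmp4 and 1.15 for Ccnd1. In the same class it was 0.69 for Eda2r, 0.43 for Rif1 and 0.36 for Smad3.

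Genes repressed in KO without a called WT change had a value of -3.26 for Ido2, -2.57 for Tmem179, -2.35 for Ubap1l, -2.35 for Hlf, -2.09 for Col6a1, -0.87 for Ehmt2 and -0.70 for Pfkm.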

How the results depend on the processing

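No named gene changed direction in the 16 alternative settings computed gene by gene, and calls shared with them had the same sign. The replicate block with the 8 libraries alone was run for counts only and gave 5514 calls. Zscan10, Ddx3x, Sox7, Xist, Evx1, Olig2, Smad3, Rif1, Utf1, Smad2, Col4a1 and Gata4, 12 in all, lost their call in at least 1 setting, and the cause was not tested. The 4889 calls became 4847 with DESeq2 size factors, 5270 with no filter, 5098 with the 8 libraries alone and 4454 with DESeq2. With the replicate block, in which each cell line is paired with itself, 4731 genes were called, 4596 of them shared, and no class count moved by more than 1.5 times.

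The GC correction, chosen after seeing the data, gave 4495 calls and lowered the class with no called change to 33 genes, or 36 together with the replicate block. With the GC correction and WT mESC replicate 1 left out, 3721 genes were called, exaggerated repressions numbered 256, reversals from induction 119 and genes with no called change 20. That setting also turned the median of the feeder fibroblast list to 0.012, and the 8 libraries alone turned that of the early neural list to 0.10.

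Leaving out 1 library gave 3326 (without KO EB replicate 4) to 5493 (without WT mESC replicate 2) calls, 1783 to 2786 positive and 1536 to 2707 negative. Blunted inductions ranged from 736 to 1331 and blunted repressions from 907 to 1343. Exaggerated inductions ranged from 228 to 330 and exaggerated repressions from 264 to 392. Reversals ranged from 117 to 318 from induction and from 193 to 307 from repression. Changes called in KO and not in WT ranged from 389 to 761 for induction and from 336 to 638 for repression, and genes with no called change from 25 to 73. The highest class counts were those without WT mESC replicate 2. X-linked genes numbered 203 to 255 positive and 19 to 39 negative. The list medians ranged from -0.34 to 0.090 for feeder fibroblast genes and from -0.016 to 0.22 for interferon response genes.

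With 2 lines per genotype and stage, low counts limit Olig2, Sox7 and the two-cell-like genes. They also leave the size of other large values uncertain, among them those of Phf11a, Atp4b, Nefm, Pcdh18 and Mir668. In WT EB, Phf11a had 0 and 4 counts and Atp4b 2 and 4. In WT mESC, Nefm had 8 and 7 counts, Pcdh18 10 and 4, and Mir668 5 and 8. A difference that missed the threshold is not shown to be absent.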
